A study of Mus musculus with 8 samples.

Results

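The genes described here encode 10 proteins of the lysosome: the cathepsins Ctsb, Ctsd, Ctss, Ctsh, Ctsz, Ctsa and Ctsc, the asparaginyl endopeptidase Lgmn, and the lysosome-associated membrane proteins Lamp1 and Lamp2. They were taken by their symbols and are 10 of the 27514 genes listed in all 8 matrices. The matrices hold unique molecular identifier (UMI) counts from droplet-based single-cell RNA sequencing of thymic epithelial cells (TEC), the stromal cells that guide T cell development in the cortex (cTEC) and medulla (mTEC) of the thymus. Each group was sorted from thymus of wild-type mice of the strain C57 B6 (CD45.2), and every gate took live EpCAM+ CD45- cells. The E13.5 library held total TEC without further gating, the cTEC libraries of E15.5, E17.5, newborn (NB) and later mice held Ly51+ UEA-1- cells, and the mTEC libraries held Ly51- UEA-1+ cells. There was 1 library for each of the first 4 groups and 2 each for cTEC and mTEC. Replicate 1 of the latter pair of groups is titled adult. Replicate 2 is titled WT and carries no age in its labels, and the methods of the study list adult cTEC and mTEC for that capture. Data set 1 comprised E13.5, E15.5, NB and both replicates 1, and data set 2 comprised E17.5 and both replicates 2. Newborn and adult mice were of either sex, and no sex is stated for the embryos. Whether a library pooled animals is not given in the sources used here. Embryonic thymi were dispersed with trypsin, whereas newborn and adult thymi were digested with Liberase and enriched on Percoll, so embryonic against later age and tissue preparation cannot be told apart.

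Lysosomes are acidic organelles in which proteins delivered by endocytosis and autophagy are cut into peptides. In cells that carry MHC class II, cathepsins also trim the invariant chain that guards the peptide groove, a step for which cTEC are known to rely on cathepsin L (Ctsl) and most other presenting cells on cathepsin S. Lamp proteins coat the inner face of the lysosomal membrane, and one splice form of Lamp2 acts as the receptor of chaperone-mediated autophagy.

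Promoter sequence is shown because many lysosomal genes are known to share a site for the transcription factor Tfeb, whose core is the letters CACGTG. RefSeq windows (build GRCm38.p6) of 250 bases before to 50 bases after a transcript start were at hand for 8 of the 10 genes, with Ctsb and Ctsh not among them. The letters TCACGTG, or CACGTGA on the other strand, which both contain CACGTG, were found in a window of 4 genes (Lamp1, Ctsd, Ctsa and Lgmn), and in 4.29% of all 27025 genes with a window. Among 49 other lysosomal genes with a window (hydrolases, proton pump subunits and membrane proteins listed further on), 12 held the letters. The 3 windows with the most matches and that of Ctss, which held none, are given from 5′ to 3′ along the gene's strand, with matches in capitals.
Lamp1, plus strand, chr8:13158911-13159210: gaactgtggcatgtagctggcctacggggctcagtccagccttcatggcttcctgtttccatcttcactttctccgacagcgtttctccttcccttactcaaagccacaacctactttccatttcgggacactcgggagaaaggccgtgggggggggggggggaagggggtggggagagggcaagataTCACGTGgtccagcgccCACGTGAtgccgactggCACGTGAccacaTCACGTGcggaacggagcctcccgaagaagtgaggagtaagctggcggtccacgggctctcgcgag
Ctsd, minus strand, chr7:142387778-142388077: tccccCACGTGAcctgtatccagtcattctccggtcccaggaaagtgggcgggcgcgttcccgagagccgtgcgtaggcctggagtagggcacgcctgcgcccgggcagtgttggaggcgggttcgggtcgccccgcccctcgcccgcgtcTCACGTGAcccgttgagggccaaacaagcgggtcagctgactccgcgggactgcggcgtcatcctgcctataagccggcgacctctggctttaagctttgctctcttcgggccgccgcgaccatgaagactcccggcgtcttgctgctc
Ctsa, plus strand, chr2:164833523-164833822: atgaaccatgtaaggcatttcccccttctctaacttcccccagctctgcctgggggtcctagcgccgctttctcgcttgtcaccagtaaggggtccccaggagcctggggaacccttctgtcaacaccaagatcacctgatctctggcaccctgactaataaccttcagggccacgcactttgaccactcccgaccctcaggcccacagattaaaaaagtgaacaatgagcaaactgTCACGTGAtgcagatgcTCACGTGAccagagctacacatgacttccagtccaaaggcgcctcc
Ctss, plus strand, chr3:95526536-95526835: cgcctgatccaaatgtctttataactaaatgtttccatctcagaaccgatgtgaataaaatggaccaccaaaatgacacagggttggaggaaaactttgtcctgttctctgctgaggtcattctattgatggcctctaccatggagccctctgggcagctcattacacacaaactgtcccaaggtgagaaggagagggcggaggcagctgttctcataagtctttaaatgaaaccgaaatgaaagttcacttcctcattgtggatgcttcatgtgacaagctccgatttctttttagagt
The Lamp1 window held 4 copies of the core within the last bases before the start, the first match beginning at -62 and the last at -16. The Ctsd window held 2 copies and the Ctsa window, which belongs to the later of its starts, also 2. These matches are a description of letters and not of binding, and the windows of Ctss, Ctsz, Ctsc and Lamp2 without a match say nothing of other sites. The Lgmn window with a match and the Lamp2 window did not continue into a GENCODE transcript. In the annotation (GENCODE M21, GRCm38) all 10 are protein-coding genes. Ctss lies at chr3:95526786-95556403 on the plus strand, Ctsh at chr9:90054152-90076089 on the plus strand, Ctsz at chr2:174427493-174439039 on the minus strand and Lamp2 at chrX:38401357-38456454 on the minus strand. Ctsd shares its strand with the overlapping gene model Gm49369 and Ctss with the pseudogene Hmgb1-ps5, so reads from these pairs could be divided between models.

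After the study's limits on mitochondrial UMIs and gene number, and removal of clusters with markers of non-epithelial cells, 25100 of 28334 deposited cells were kept. Kept cells per library ranged from 507 to 8070 and their UMIs from 2238190 in cTEC replicate 1 to 87277660 in E17.5 cTEC, with median UMIs per cell of 3973 to 11354, so values of the cTEC replicates rest on the fewest counts. Levels are given as CPM, the UMIs of a gene relative to all UMIs of the kept cells. Barcodes shared between libraries were at most 1.90% of the smaller library. The labelled tissue is thymus although the growth protocol field speaks of bone marrow, and all 6 epithelial markers checked were detected in every library. Summed levels of the 6 cTEC markers (Psmb11, Prss16 and others) were 5824 and 9958 CPM in the cTEC replicates and 297 and 384 CPM in the mTEC replicates. The cTEC replicates stood apart from the younger cTEC libraries in other markers. The 6 mTEC I markers (Ccl21a, Krt5 and others) summed to 7896 and 2433 CPM in cTEC replicates 1 and 2, against 228 to 537 CPM in E15.5, E17.5 and NB cTEC and 9334 and 4571 CPM in mTEC. Cells of cTEC replicate 1 included a cluster of 103 cells led by the macrophage gene C1qa and one of 106 cells led by the endothelial genes Flt1 and Plvap, which did not meet the rule for removal. In replicate 2 a cluster of 103 cells with some endothelial markers and one of 29 cells with some myeloid markers were kept too. The 8 mesenchymal markers summed to 497 and 334 CPM in cTEC replicates 1 and 2, against 8.38 to 33.8 CPM in E15.5, E17.5 and NB cTEC. The estimates of the 10 genes are therefore also given with the cTEC replicates restricted to their cortical clusters, those with over 1000 CPM of Psmb11 plus Prss16 and not led by C1qa, a selection made after the clusters were seen.

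Taken as a group, the 10 genes had their lowest summed level in E13.5 TEC and their highest in mTEC. They summed to 478 CPM in E13.5 TEC, 798 in E15.5 cTEC, 1022 in E17.5 cTEC, 1255 in NB cTEC, 1390 and 1408 in the cTEC replicates, and 1718 and 1624 in the mTEC replicates. The make-up of this sum differed between lineages more than its size. Lamp2 alone supplied 74.7%, 65.0% and 77.5% of these UMIs in E15.5, E17.5 and NB cTEC and 50.9% and 62.3% in the cTEC replicates, but 11.0% and 8.85% in mTEC. In mTEC the cysteine proteases Ctsh and Ctsz supplied the most, Ctsh 24.1% and 25.3% and Ctsz 19.5% and 22.5%. Since counts of 3′ ends do not scale with transcript length, these shares compare numbers of detected molecules. When cells were thinned to 2000 UMIs, leaving out shallower cells (66 of 507 in cTEC replicate 1, 123 in mTEC replicate 2 and at most 57 in the others), a cell held UMIs of 0.812 of the 10 genes on average in E13.5 TEC, 1.63 in both cTEC replicates, and 2.25 and 2.24 in the mTEC replicates.

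**Figure D1:**
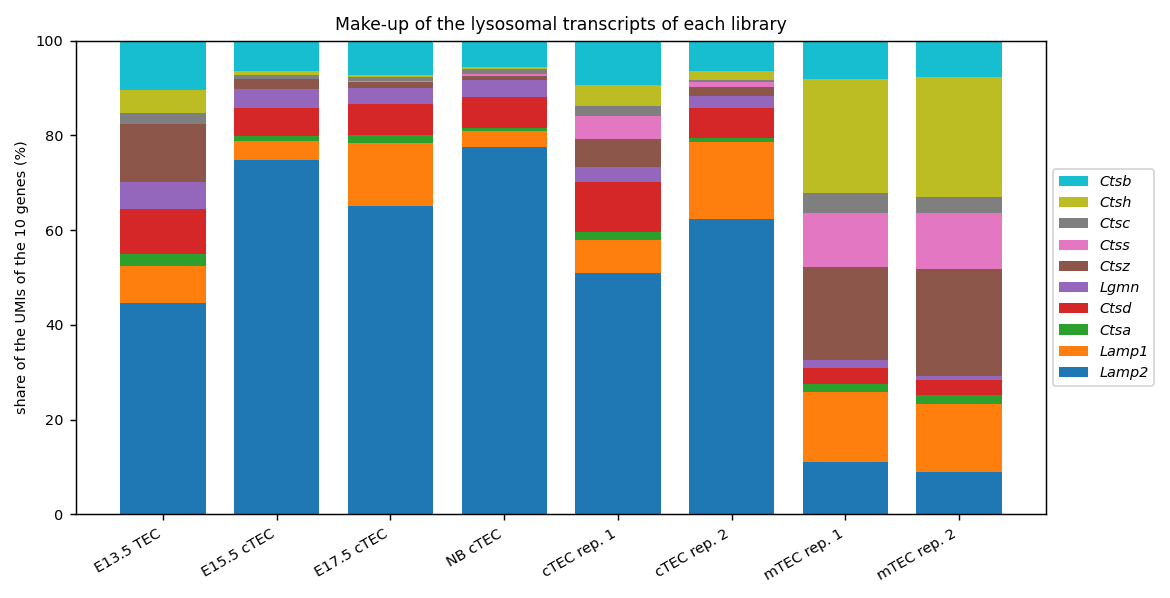
Stacked bars give the share (%) of the UMIs of the 10 genes that each gene supplied in each of the 8 libraries. Lamp2 fills 44.5% to 77.5% of the bars of E13.5 TEC and cTEC, and Ctsh, Ctsz and Ctss fill most of the mTEC bars, where Lamp2 is at 11.0% and 8.85%.

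The first comparison asked how the genes change from E13.5 TEC through the later cTEC. Of the 10 genes, 1 passed the test and rose, Ctss, beside 2.18% of 13737 genes tested that rose and 1.27% that fell, or 3.46% that changed in either direction. The test was the slope of log2 level on stage rank over the 4 libraries of data set 1 (edgeR quasi-likelihood test, Benjamini-Hochberg adjustment over all genes). The ranks were 1, 2, 4 and 5 for E13.5, E15.5, NB and cTEC replicate 1, with rank 3 left to E17.5. A slope per stage is thus per rank, and the steps between these libraries are not all equal. With 1 library per stage, its error is the scatter of the libraries about the line and not a spread between animals. The estimates of all 10 genes were above 0, with a median of 0.32 log2 per stage, against -0.01 for all genes tested. Without cTEC replicate 1 the estimates of Ctsh, Ctsz and Ctsa were below 0, and the calls of all genes fell from 475 to 34.

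Ctss, the elastinolytic endopeptidase of antigen-presenting cells, was at 0.214 CPM in E13.5 TEC (3 UMIs), 0.472 in E15.5 cTEC, 3.61 in E17.5 cTEC, 5.39 in NB cTEC, and 68.8 and 14.4 in cTEC replicates 1 and 2. The values were in the order of age, and the replicates differed by 4.78-fold from each other. The slope was 2.165 ± 0.21 log2 per stage (SE; edgeR adjusted p = 0.018), or 4.49-fold. It was 1.64 (edgeR adjusted p = 0.078) without cTEC replicate 1, and without NB cTEC the gene was too low to be tested. With cTEC replicate 1 restricted to its cortical clusters, where Ctss was at 3.24 CPM from 1 UMI, the slope was 1.38 (edgeR adjusted p = 0.033). Myeloid markers moved with Ctss. The 12 myeloid markers summed to 1.20 to 3.28 CPM in the 4 embryonic and NB libraries, with Adgre1, Itgax and, before E17.5, Lyz2 and C1qa at 0, and to 434 and 39.8 CPM in cTEC replicates 1 and 2, where 11 and 9 of 12 were detected. In cells without a UMI of any of these markers Ctss was at 0.217, 0.477, 5.14 and 7.79 CPM in E13.5, E15.5, NB and cTEC replicate 1, and the slope was 1.39 (edgeR adjusted p = 0.031).

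The other cysteine proteases took several courses that did not pass the test. Ctsb, an endopeptidase and dipeptidyl carboxypeptidase, was at 49.5 CPM in E13.5 TEC, 51.8 in E15.5, 73.3 in E17.5 and 69.9 in NB cTEC, and 129 and 90.4 in the cTEC replicates, with a slope of 0.32 ± 0.10 (SE; edgeR adjusted p = 0.14). The aminopeptidase Ctsh was at 23.0 CPM in E13.5 TEC, at 5.34, 4.54 and 5.13 in E15.5, E17.5 and NB cTEC, and at 64.3 and 25.7 in the cTEC replicates. The carboxypeptidase Ctsz traced the same shape, with 58.7 CPM, then 16.5, 11.7 and 10.3, then 81.8 and 24.4. Compared as whole libraries, both genes were thus lowest in the late fetal and NB libraries. In the cortical clusters of cTEC replicates 1 and 2, Ctsz was at 6.47 and 7.45 CPM, below its NB level. Ctsh was at 9.71 and 1.02 CPM there. Both slopes missed the threshold, at 0.34 ± 0.31 for Ctsh (SE; edgeR adjusted p = 0.55) and 0.08 ± 0.26 for Ctsz (SE; edgeR adjusted p = 0.88). With only the cortical clusters of cTEC replicate 1, the Ctsz slope was -0.75 and passed in the opposite direction (edgeR adjusted p = 0.027). Without E13.5 TEC, the only library that was not gated on Ly51, the Ctsh slope was 1.09 (edgeR adjusted p = 0.046). At E13.5 the level of both genes was uneven: a cluster of 73 cells led by Ccl5 and Il4i1 held 390 CPM of Ctsz and 92.1 of Ctsh. The 404 cTEC-like cells held 28.3 and 8.13 CPM, and the Ctsh level was highest, at 99.8 CPM, in a cluster of 197 cells led by Krtdap and Bpifa1. Ctsc, the dipeptidyl peptidase that activates granule serine proteases, ranged from 6.90 to 12.04 CPM up to birth and was at 27.7 and 8.12 in the cTEC replicates. Lgmn, which cuts after asparagine and matures other cathepsins, lay between 27.0 and 46.4 CPM in these 6 libraries, with its highest value in NB cTEC.

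The aspartic protease Ctsd was at 45.6 CPM in E13.5 TEC, 47.5 in E15.5, 67.2 in E17.5 and 82.8 in NB cTEC, and 146 and 88.5 in the cTEC replicates. These levels followed age, and the slope of 0.41 ± 0.10 (SE; edgeR adjusted p = 0.078) missed the threshold in data set 1 and passed it over the 6 libraries of E13.5 TEC and cTEC with data set as a term, at 0.38 (edgeR adjusted p = 0.048). The carboxypeptidase Ctsa, which also shields beta-galactosidase and neuraminidase, was low throughout, at 6.47 to 17.9 CPM up to birth and 25.5 and 11.8 in the cTEC replicates. Lamp2 was the most abundant of the 10 in E13.5 TEC and every cTEC library, at 213 CPM in E13.5 TEC, 596 in E15.5, 664 in E17.5 and 972 in NB cTEC, and 708 and 877 in the cTEC replicates. The largest step lay between E13.5 and E15.5, where the gate also changed, and the slope was 0.40 ± 0.20 (SE; edgeR adjusted p = 0.29). Over 16 other settings the Lamp2 slope ranged from 0.12 to 0.69. For Lamp1 the values are given by data set. In data set 1 it was at 38.2, 33.1, 43.6 and 96.1 CPM in E13.5, E15.5, NB and cTEC replicate 1, and in data set 2 at 136 in E17.5 and 231 in cTEC replicate 2. The cTEC replicate was the highest of the E13.5 and cTEC libraries within each data set. The mTEC replicates of both data sets were alike, at 254 and 235 CPM, and with data set as a term over 6 libraries the slope was 0.32 (edgeR adjusted p = 0.089). The slopes of Ctsc, Lgmn, Ctsa and Lamp1 were 0.33, 0.20, 0.20 and 0.31 (edgeR adjusted p = 0.23, 0.30, 0.53 and 0.18). Over 16 other settings these slopes ranged from -0.054 to 0.62, -0.017 to 0.29, -0.26 to 0.43 and 0.11 to 0.46. With cTEC replicate 1 restricted to its cortical clusters, the slopes of Ctsb, Ctsd, Lamp1 and Lamp2 were 0.14, 0.34, 0.29 and 0.51 (edgeR adjusted p = 0.46, 0.084, 0.19 and 0.081), and those of Ctsh, Ctsa, Ctsc and Lgmn were -0.51, -0.13, -0.054 and 0.056 (edgeR adjusted p = 0.21, 0.69, 0.92 and 0.89).

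**Figure D2:**
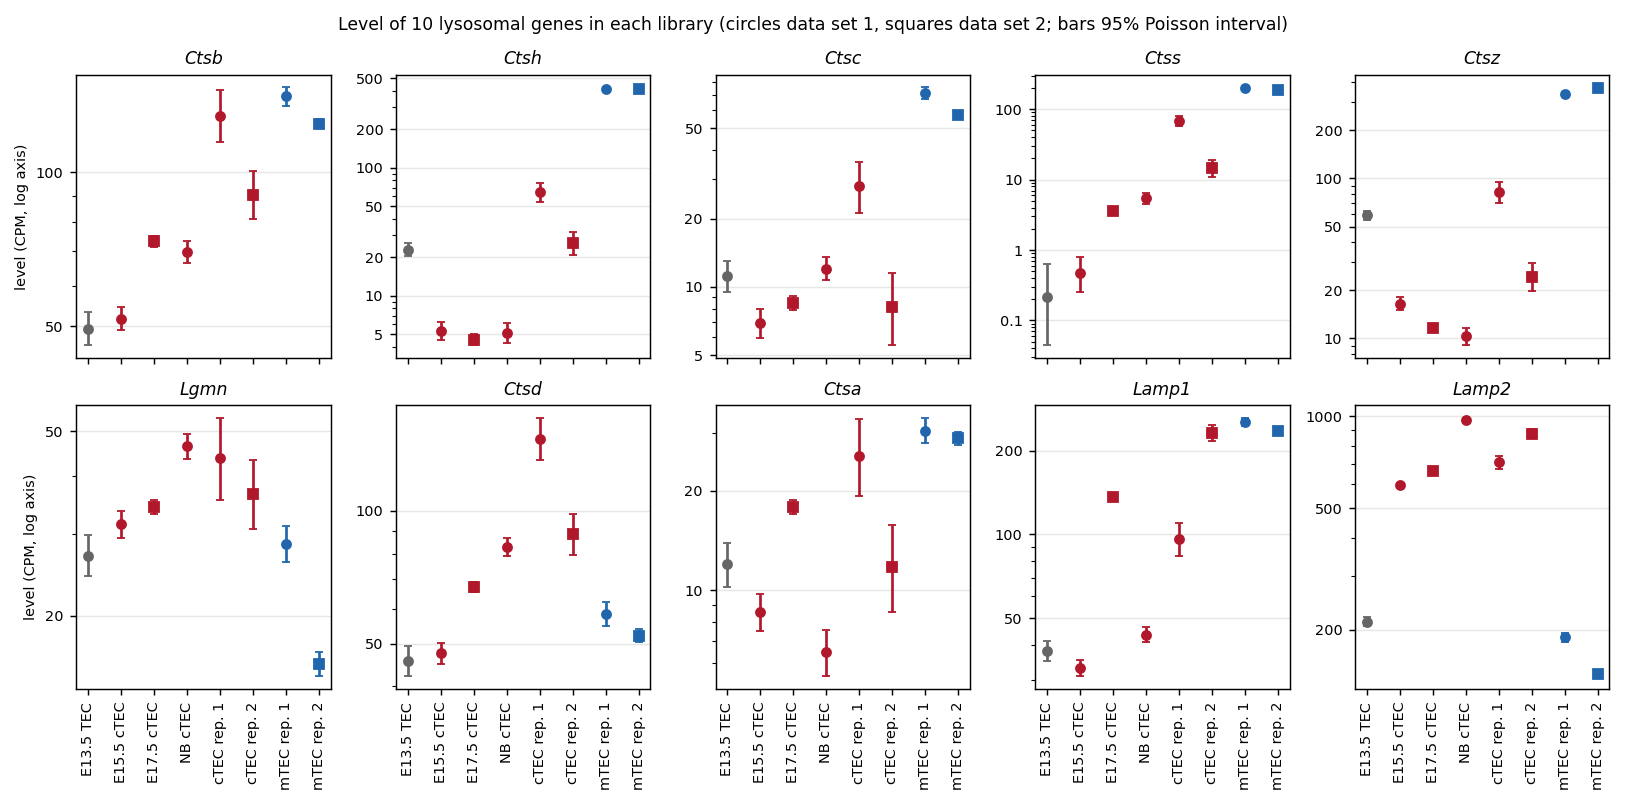
Points give the level of each gene in each library (CPM, log axis that differs between panels), circles for data set 1 and squares for data set 2, grey for E13.5 TEC, red for cTEC and blue for mTEC, with exact 95% Poisson intervals that cover counting error only. Ctss climbs from 0.214 CPM in E13.5 TEC to 68.8 and 14.4 in the cTEC replicates, Ctsh and Ctsz dip in E15.5 to NB cTEC, and Lamp2 is at 596 to 972 CPM in the cTEC libraries and at 189 and 144 in mTEC.

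The second comparison set cTEC against mTEC over 4 libraries, with data set as a term. Of the 10 genes, 4 were higher in mTEC (Ctsh, Ctsz, Ctss and Ctsc) and 2 in cTEC (Lamp2 and Ctsd). Over all 15627 genes tested, 31.9% differed, 20.9% being higher in mTEC and 11.0% in cTEC. The median log2 difference, cTEC minus mTEC, was -0.81 over the 10 genes and -0.14 over all genes. The libraries of the 2 gates did not overlap for 9 of the 10 genes, the exception being Ctsb, beside 67.7% of all genes tested. The direction was the same in both data sets for all 10, beside 76.1% of all genes tested, and for Lamp1 the libraries of data set 2 were nearly equal. Nothing in the labels says that the replicates came from separate animals, so p-values measure the spread between these libraries.

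Ctsh was at 413 and 411 CPM in mTEC and 64.3 and 25.7 in cTEC, a difference of -3.41 ± 0.44 (SE; edgeR adjusted p = 3.9e-08), or 10.6-fold. The mTEC libraries were close to each other and far above both cTEC libraries. Ctsz was at 336 and 366 CPM in mTEC and 81.8 and 24.4 in cTEC (-3.03 ± 0.45, SE; edgeR adjusted p = 6.9e-07). Ctss was at 197 and 190 CPM against 68.8 and 14.4 (-2.66 ± 0.45, SE; edgeR adjusted p = 8.6e-06). For these genes the mTEC replicates were close and the cTEC replicates differed by 2.51-fold to 4.78-fold, replicate 1 being the higher. Over 16 other settings the difference ranged from -7.54 to -2.89 for Ctsh, -5.79 to -2.31 for Ctsz and -6.08 to -1.70 for Ctss. Ctsc was at 71.5 and 56.9 CPM in mTEC against 27.7 and 8.12 (-2.14 ± 0.43, SE; edgeR adjusted p = 0.00010). Fits that left out a library also lacked the data set term. Without both mTEC replicate 2 and that term, the estimates of Ctss (-2.39, edgeR adjusted p = 0.065) and Ctsc (-2.14, edgeR adjusted p = 0.063) missed the threshold, as did that of Ctsc without cTEC replicate 2 and the term (-1.42, edgeR adjusted p = 0.056). Without the term alone, Ctss was at -2.37 (edgeR adjusted p = 0.0504) and Ctsc at -1.99 (edgeR adjusted p = 0.045).

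The 12 myeloid markers summed to 726 and 866 CPM in mTEC, beside 434 and 39.8 CPM in cTEC, with all 12 detected in both libraries and Lyz2 (370 and 443 CPM) and Laptm5 (235 and 235 CPM) the highest. Of cTEC in replicates 1 and 2, 84.4% and 93.2% held no UMI of these markers, but only 38.5% and 8.12% of mTEC. The 456 such mTEC of replicate 2 held 3015798 UMIs, against 67324065 in all 5615 kept mTEC, and were thus shallower. The selection is therefore not alike for the 2 gates. In mTEC without such a UMI, Ctss was at 94.6 and 96.5 CPM, Ctsh at 87.1 and 184 and Ctsz at 125 and 198. All 4 proteases stayed higher in mTEC than in cTEC selected by the same rule, with Ctss at -4.02 (edgeR adjusted p = 0.00012) and Ctsh at -3.27 (edgeR adjusted p = 0.00033).

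Lamp2 was the reverse, with 708 and 877 CPM in cTEC and 189 and 144 in mTEC (2.19 ± 0.42, SE; edgeR adjusted p = 5.6e-05), a 4.55-fold difference, which missed the threshold without mTEC replicate 2 and the data set term (2.01, edgeR adjusted p = 0.12) and passed without the term alone (2.20, edgeR adjusted p = 0.014). In 2000 UMIs per cell, 69.4% and 72.7% of cTEC and 31.7% and 24.3% of mTEC held a Lamp2 UMI, against 81.5% and 91.1%, and 78.3% and 71.6%, without thinning. No cluster gave a background for such shares: even the thymocyte-like cluster left out of NB cTEC held 940 CPM of Lamp2, beside 972 in the kept cells, at median depths of 8629.5 and 6010 UMIs. Ctsd was at 146 and 88.5 CPM in cTEC and 58.4 and 52.1 in mTEC (0.97 ± 0.38, SE; edgeR adjusted p = 0.044), and this call was lost in 12 of 16 other settings. In cells without a myeloid UMI, Ctsd was at 104 and 75.9 CPM in mTEC and its difference was 0.10 (edgeR adjusted p = 0.91). The remaining 4 did not pass. Lgmn was at 43.8 and 36.7 CPM in cTEC and 28.6 and 15.7 in mTEC (0.85 ± 0.40, SE; edgeR adjusted p = 0.11). Ctsa was at 25.5 and 11.8 against 30.5 and 28.9 (-0.85 ± 0.42, SE; edgeR adjusted p = 0.12). It passed as higher in mTEC without cycling cells (-1.14, edgeR adjusted p = 0.027) and without cTEC replicate 1 and the data set term (-1.32, edgeR adjusted p = 0.048), and was at -0.43 without cTEC replicate 2 and the term (edgeR adjusted p = 0.27). Ctsb was at 129 and 90.4 against 140 and 124 (-0.37 ± 0.37, SE; edgeR adjusted p = 0.50). Lamp1 was at 96.1 and 231 CPM in cTEC and 254 and 235 in mTEC (-0.78 ± 0.41, SE; edgeR adjusted p = 0.15), so that its difference was -1.40 in data set 1 and -0.03 in data set 2. Without cTEC replicate 2 and the data set term it passed at -1.55 (edgeR adjusted p = 0.041), and without cTEC replicate 1 and the term it was at -0.07 (edgeR adjusted p = 0.83).

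**Figure D3:**
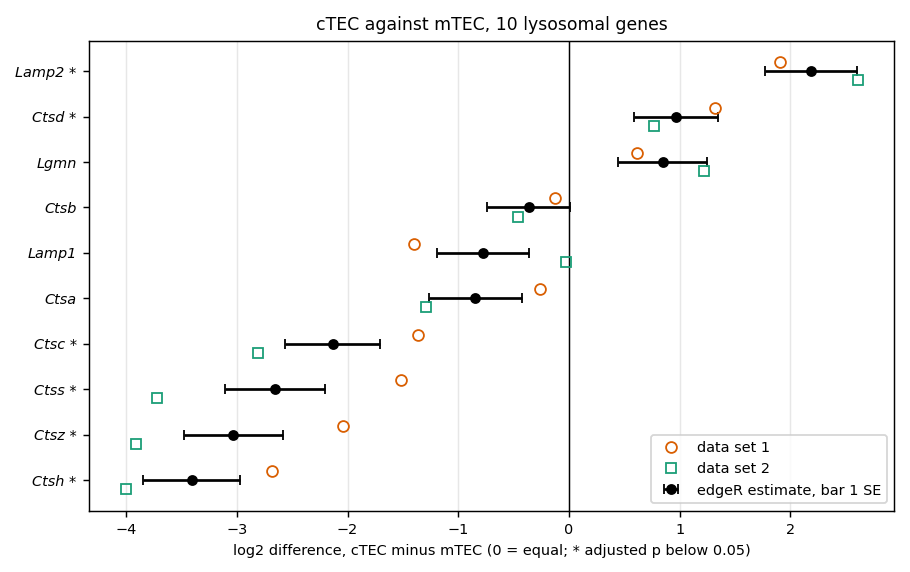
Black points give the edgeR log2 difference (cTEC minus mTEC) of each gene with 1 SE, and open symbols the log2 ratio of CPM within data set 1 and data set 2, with genes at an adjusted p below 0.05 starred. Ctsh (-3.41) and Lamp2 (2.19) stand at the ends, and Lamp1 is at -1.40 in data set 1 and -0.03 in data set 2.

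Within the cTEC libraries the proteases that were higher in mTEC had lower levels in the cortical clusters than in the other clusters. In replicate 1 the other clusters included the C1qa-led cluster. The cortical clusters held 13.8% of the UMIs of cTEC replicate 1 (64 cells) and 77.4% of those of replicate 2. Ctss was at 3.24 and 3.05 CPM in them and at 79.3 and 53.2 CPM in the other clusters. Ctsh was at 9.71 and 1.02 against 73.1 and 110, and Ctsz at 6.47 and 7.45 against 93.8 and 82.1. The cortical values of Ctss and Ctsz lay close between the replicates, those of Ctsh did not, and in replicate 1 they rest on 1 UMI for Ctss, 3 for Ctsh and 2 for Ctsz. Ctsc had 0 of 62 UMIs in the cortical clusters of replicate 1, which allows up to 9.71 CPM (3 UMIs), and was at 5.42 CPM in those of replicate 2. Lamp2 went the other way, with 1062 and 1001 CPM in the cortical clusters and 652 and 451 CPM in the others. Ctsd was at 113 and 76.5 against 151 and 130, and Ctsb at 68.0 and 68.4 against 138 and 165. With the cTEC replicates restricted to cortical clusters, the difference from mTEC was -7.54 for Ctsh, -6.08 for Ctss and -5.79 for Ctsz (edgeR adjusted p = 5.1e-22, 2.7e-18 and 9.7e-18), Ctsa and Ctsb also passed as higher in mTEC at -1.73 and -1.16 (edgeR adjusted p = 0.0067 and 0.048), and Ctsd did not pass (0.52, edgeR adjusted p = 0.41). Ctsc (-3.94, edgeR adjusted p = 5.7e-10) and Lamp2 (2.42, edgeR adjusted p = 6.1e-05) also passed, and Lamp1 (-0.97, edgeR adjusted p = 0.13) and Lgmn (0.27, edgeR adjusted p = 0.75) did not. Among the other clusters, those led by the airway gene Bpifa1 held 379 and 353 CPM of Ctsh and 176 and 118 CPM of Ctss in replicates 1 and 2, from 40 and 26 cells. The C1qa-led cluster of replicate 1 held 124 CPM of Ctss and 114 CPM of Ctsz, together with 4538 CPM of the cortical genes Psmb11 plus Prss16. It was thus over the cut of 1000 CPM and was set apart only because C1qa led it. The contrast between cortical and other clusters in replicate 1, and the fits restricted to cortical clusters, depend on that choice.

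**Figure D4:**
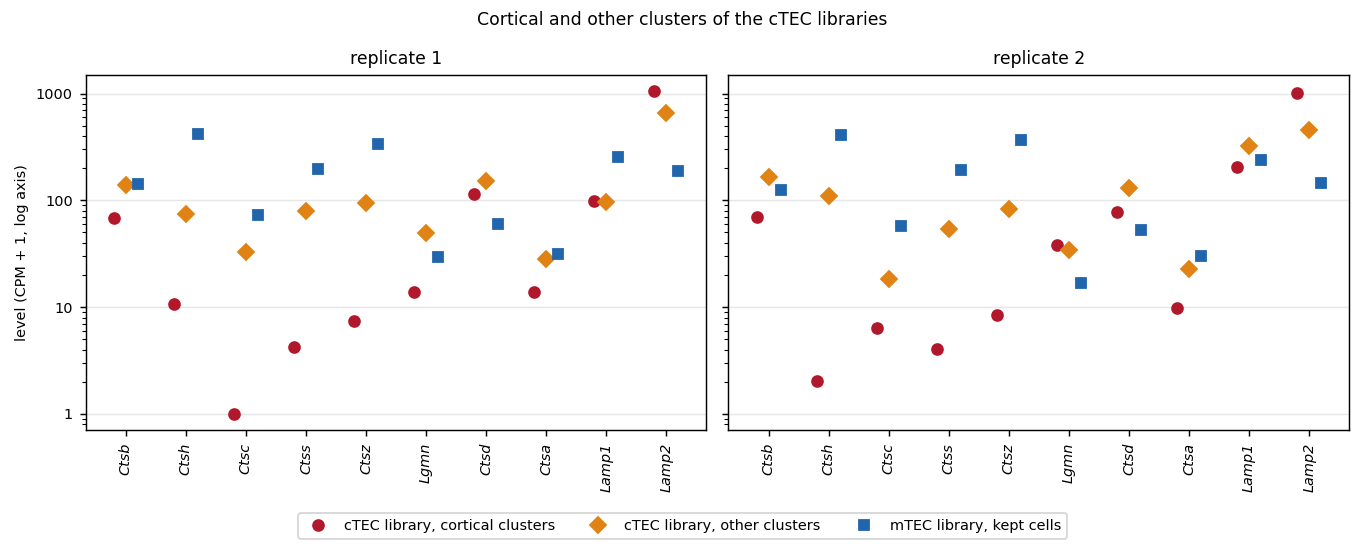
Points give the level (CPM + 1, log axis) of each gene in the cortical clusters (red) and the other clusters (orange) of a cTEC library and in the mTEC library of the same data set (blue), with replicate 1 on the left and replicate 2 on the right. Ctsh, Ctsc, Ctss and Ctsz climb from cortical to other clusters to mTEC in both panels, and Lamp2 descends. The C1qa-led cluster of replicate 1 is counted among the other clusters.

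The mTEC libraries were uneven as well, and the genes split there into different sets of cells. Clusters had been made without the 10 genes among the variable genes, but other genes of the same cells defined them, so these levels are a description. Ctsh ranged 16.9-fold between mTEC clusters in replicate 1 and 19.4-fold in replicate 2. It was highest in a cluster of 94 cells of replicate 2 led by Ccl6, Ccl20, Ccl9 and Gp2, at 1937 CPM, where Lamp1 (794 CPM), Ctsz (700 CPM) and Ctsd (289 CPM) were highest too and Lgmn lowest (5.23 CPM). In mTEC I-like cells, which carry the chemokine Ccl21a, Ctsh was at 62.2 and 111 CPM and Ctsz at 74.7 and 143 CPM. The same cells held more than their library's average of Ctsb (229 and 174 CPM), Lamp1 (359 and 296 CPM), Lamp2 (301 and 210 CPM) and Lgmn (44.5 and 21.6 CPM). Ctsc was at 182 CPM in the mTEC IV-like, or tuft, cells of replicate 2 (151 cells) and 204 CPM in the 13 such cells of replicate 1, against library averages of 56.9 and 71.5 CPM. In mTEC III-like cells of replicate 2 (312 cells), which carry keratinocyte genes, Ctsd was at 183 CPM. Lamp2 ranged 3.41-fold and 2.63-fold between clusters of mTEC replicates 1 and 2. Its range was 5.49-fold in E13.5 TEC, 4.73-fold in E15.5, 4.86-fold in E17.5 and 1.52-fold in NB cTEC, and 2.08-fold and 2.81-fold in the cTEC replicates.

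**Figure D5:**
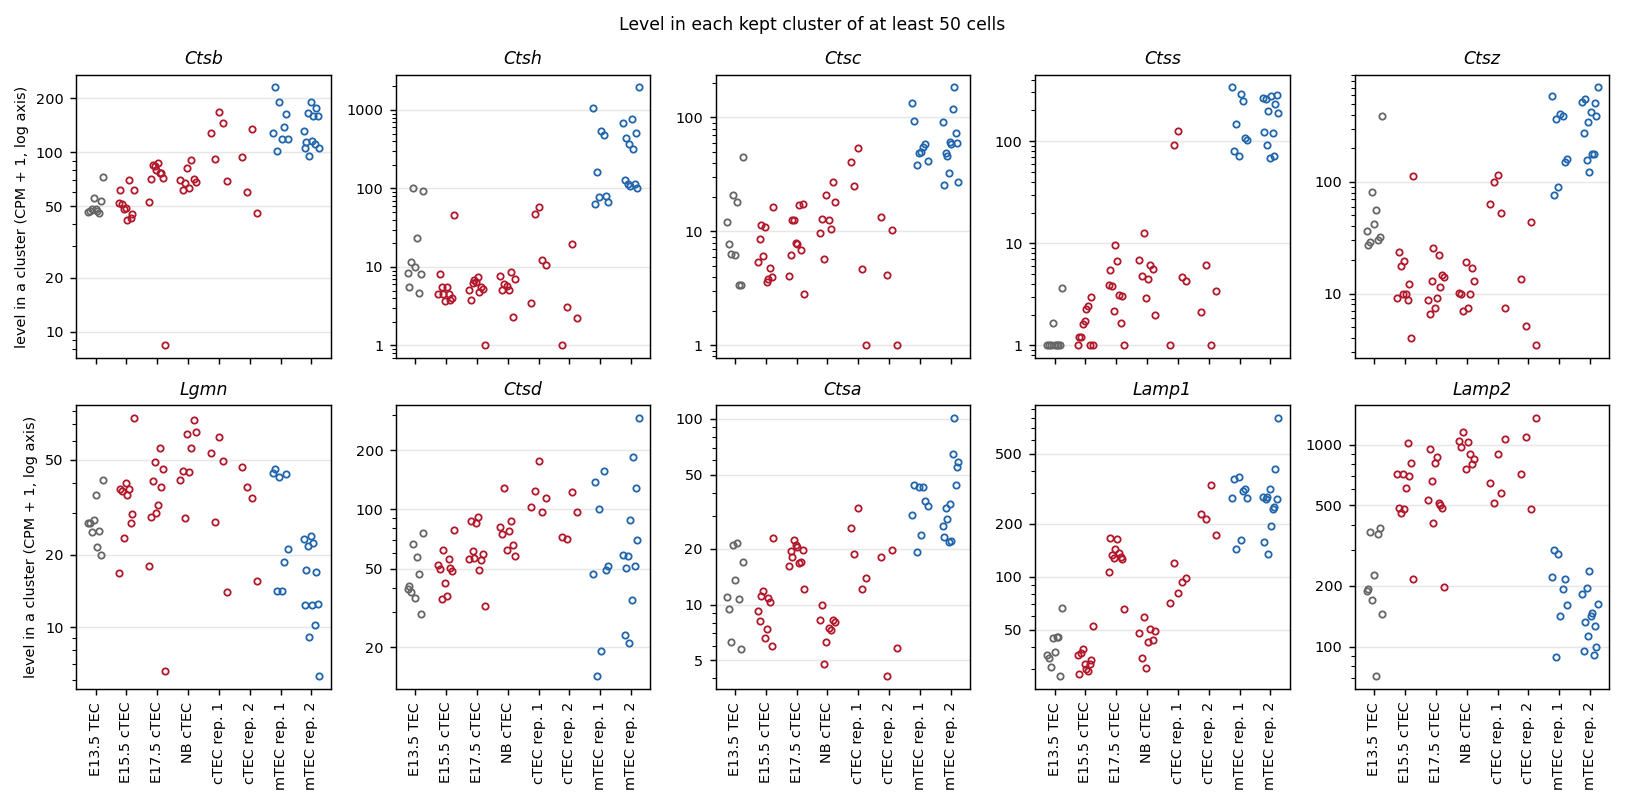
Each open point is 1 kept cluster of at least 50 cells, placed by the level of the gene in it (CPM + 1, log axis that differs between panels), in grey for E13.5 TEC, red for cTEC and blue for mTEC. Clusters of mTEC spread over more than 10-fold for Ctsh, and clusters of cTEC replicate 1 reach from 0 to 124 CPM for Ctss.

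Cycling cells, with UMIs of at least 3 of 12 cell cycle genes, were compared with the other cells of their library in the 6 libraries with at least 50 of each. Differences are log2 ratios of CPM + 10, which shrinks those of genes at low levels. In E15.5, for example, Ctsc was at 9.50 CPM in cycling cells and 5.34 CPM in the others. Ctsd, Ctsh and Lamp2 were lower in cycling cells in 6 of 6 libraries, by a mean of -0.52 ± 0.38, -0.43 ± 0.46 and -0.48 ± 0.30 log2 (SD, n = 6). The exact sign-flip permutation test gave p = 0.031 for each, the smallest that 6 libraries allow, and 0.10 after adjustment over the 10 genes. None passed, but a gene could pass after adjustment only if most of the 10 genes reached that smallest p together. The test therefore could not decide on single genes. The differences of the other 7 genes lay between -0.22 and 0.13 on average, with both signs among their libraries. For Ctsc the differences were 0.16, 0.35, 0.30 and 0.42 in E13.5, E15.5, E17.5 and NB, and -0.45 and -0.42 in the mTEC replicates. For Lgmn they were 0.13, 0.46, 0.36 and 0.45, and -0.49 and -0.10. The signs thus split between the E13.5 to NB libraries and mTEC for both genes, which was not tested.

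Other genes of the pathway frame these values. Ctsl was far above the 10 genes in E13.5 TEC and cTEC, at 776 CPM in E13.5 TEC, 4376 in E15.5, 13246 in E17.5 and 13769 in NB cTEC, 7417 and 9580 in the cTEC replicates, and 883 and 504 in mTEC. It was higher in cTEC than in mTEC (3.59 ± 0.50, SE; edgeR adjusted p = 2.1e-07), while its stage slope missed the threshold (0.82 ± 0.32, SE; edgeR adjusted p = 0.21). Of the UMIs of Ctsl and Ctss together, Ctsl had at least 99.96% in each library up to birth, 99.1% and 99.9% in the cTEC replicates and 81.8% and 72.6% in mTEC. Of the 7 cathepsins on this list, 1 (Ctsl) was called higher in cTEC and 4 higher in mTEC, beside 11.0% and 20.9% of all genes. The 4 had no UMI in cTEC, so they passed the filter on low counts only through mTEC, where they had to be higher, and the count is a description. Ctsk, the collagenolytic protease of osteoclasts, was at 10.1 and 3.94 CPM in mTEC with 0 UMIs in both cTEC libraries, which makes it at least 10.4-fold higher against a floor of 3 UMIs over the group. Ctse and Ctsg were likewise without a UMI in cTEC and at least 4.78-fold and 4.71-fold higher in mTEC. Over the list the median difference was -8.19 as fitted and -1.77 with genes at 0 placed at their bound. Of 4 cystatins, the inhibitors of cysteine cathepsins, 1 was called higher in cTEC and 2 in mTEC, beside the same shares of all genes. Cstb was higher in cTEC (3737 and 8363 against 1234 and 898 CPM; 2.34 ± 0.49, SE; edgeR adjusted p = 0.00019). Cst6 was higher in mTEC, at 189 and 309 CPM against 62.1 and 111 (-1.62 ± 0.39, SE; edgeR adjusted p = 0.0011). Cst7 was at 1.68 and 2.61 CPM in mTEC with 0 UMIs in cTEC, at least 4.91-fold, and also entered the test only through mTEC. Cst3 did not pass at 1019 and 780 against 599 and 570 CPM (0.54 ± 0.40, SE; edgeR adjusted p = 0.33). No cathepsin or cystatin of these lists passed the stage test, where Cst3 had a slope of 0.45 ± 0.10 (SE; edgeR adjusted p = 0.075) and Cstb 0.63 ± 0.37 (SE; edgeR adjusted p = 0.37).

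Of 34 hydrolases and activators 1 passed the stage test, beside 3.46% of all genes: Hexa, a subunit of beta-hexosaminidase, which rose by 0.52 ± 0.09 per stage (SE; edgeR adjusted p = 0.043), and the median slope of the list was 0.28. None of the 15 subunits of the proton pump (V-ATPase), 15 membrane and transport proteins, 9 sorting genes, 11 tested regulators or 4 tested MHC class II loading genes passed, with median slopes of 0.24, 0.29, 0.07, 0.05 and 0.90. Of 12 cell cycle genes 7 fell. Between lineages, 3 of 34 hydrolases were higher in cTEC and 5 in mTEC, beside 11.0% and 20.9% of all genes, the latter including Gusb (28.1 and 11.8 against 118 and 99.4 CPM), Arsb (9.83 and 12.8 against 72.5 and 60.9 CPM) and Scpep1 (5.81 and 3.67 against 22.0 and 20.8 CPM). These encode beta-glucuronidase, arylsulfatase B and a serine carboxypeptidase. Of the 15 genes of the membrane list, 3 were higher in cTEC, among them the iron transporter Slc11a2 (37.5 and 22.8 against 8.47 and 7.06 CPM) and Laptm4b (49.6 and 66.8 against 18.8 and 27.9 CPM), and 2 in mTEC, among them the sialic acid exporter Slc17a5 (3.13 and 2.36 against 13.3 and 9.83 CPM). The V-ATPase subunit gene Atp6v1c1 was the only one of 15 to differ (40.2 and 37.7 against 113 and 125 CPM), and of the regulators Mitf, a relative of Tfeb, was higher in cTEC (12.96 and 11.8 against 1.86 and 1.40 CPM). No sorting or MHC class II loading gene differed, and 3 of 12 cell cycle genes were higher in mTEC. The median difference was 0.16 for the hydrolases, -0.10 for the V-ATPase and -0.05 for the membrane list, and -0.14 for all genes. Of the 34 hydrolase estimates 21 were above 0.

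Across the 8 libraries, the genes with a pattern of log2 level (of CPM + 10) most like that of each of the 10 were sought among 2973 genes of at least 50 CPM on average. Lamp2 was most like Gas6 (Pearson r = 0.98), Tnfrsf1a (0.98) and Ctsl (0.98). Ctsh was most like Sprr1a (0.99), Cyba (0.99) and Pdlim4 (0.99), and Ctsz like Cyba (0.99), Il4i1 (0.98) and Pdlim4 (0.98). Ctss was most like Srgn, Msn and Lyz2 (all 0.99), and Ctsd like Sdc4 (0.99). Ctsc was most like Rgs5 (0.98), Sprr1a (0.98) and Plb1 (0.98), Lamp1 like Pnrc1 (0.99), Jund (0.99) and Rtn4 (0.98), and Lgmn like Hpgd (0.97), Wdr61 (0.96) and Il10rb (0.95). Ctsb was most like Sfrp1, H2-Q6 and H2-Q7 (0.97, 0.97 and 0.96), and Ctsa like Sfrp1 (0.94), Litaf (0.90) and Ppp4r2 (0.90). These correlations run over libraries that share data sets and gates and are given as a description.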

How the data were processed

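The data are 10x Chromium v2 libraries. The authors deposited raw UMI counts per gene and cell, without normalization; the submitters' processing notes name bcl2fastq 2.17, STAR 2.5.1b, Cell Ranger 2.0.1 and mm10, and the matrix headers of data set 2 name a later Cell Ranger. Gene lists differed between captures (27998 and 31053 genes), and the 27514 shared ones were used. Members and gene lists were chosen with earlier results of these data known. Cells over 5% mitochondrial UMIs or 5000 genes were left out, which gave the cell numbers that the study states for data set 1 and other numbers for data set 2. Cells were clustered per library (scanpy 1.11.5, Leiden method at resolution 0.8, 20 components of 2000 variable genes), leaving the 10 genes out of the variable genes. Clusters with at least 3, and the majority, of the markers of a non-epithelial class at 4-fold were removed, and subsets were called X-like by the same rule at 2-fold. No doublet caller was run, so doublets within the 5000-gene limit remain. Kept counts were summed per library, the unit of every test. Both fits used edgeR 4.0.16 in R 4.3.3 (filterByExpr, TMM scaling, quasi-likelihood test, Benjamini-Hochberg adjustment, threshold 0.05); standard errors (SE) were taken from the estimate and its F value. The fits were checked on simulated counts with known changes. DESeq2 1.42.0, other scalings, filters and cell selections were alternatives. CPM are relative to all kept UMIs of a library. Intervals are exact Poisson at 95% and cover counting error only. Named genes were the 10, Ctsl, Cst3, Cstb and up to 3 genes per list with the largest estimate past the threshold. Part of the likeness result for Ctsd is not reported here.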

Additional observations from a re-analysis of the deposited data

Results flagged for a closer look

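Signal of 2 of the genes appeared in cells that the comparisons left out. In the 123 parathyroid-like cells of the E13.5 library, led by Pth and Chga, Ctsz was at 793 CPM and Lgmn at 707 CPM, against 58.7 and 27.0 CPM in the kept cells of the same library, a ratio of 26.2 for Lgmn. The median depth of these cells was 4235 UMIs. They are from 1 library, so there is no replicate check. A cluster of 95 cells of E15.5 cTEC that was kept, led by Pth, Bpifa1 and Chga, held 112 CPM of Ctsz and 73.3 of Lgmn against 16.5 and 31.6 CPM in its whole library. In the 62 thyroid-like cells of the E13.5 library Lgmn was at 33.6 CPM.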

How the results depend on the processing

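The stage test called 475 genes. It called 1158 over 6 libraries with data set as a term, 1777 with DESeq2, 193 without cycling cells, 257 without the C1qa and Flt1 clusters and 936 with the cortical clusters of cTEC replicate 1 (both selections chosen after seeing the data), and 34 to 771 when 1 library was left out. Its calls among the 10 genes went from 1 to 2 with 6 libraries, with DESeq2 and with cortical clusters, and to 0 to 2 when 1 library was left out. Slopes turned below 0 as follows, with that of Ctsz in cortical clusters the only one past the threshold. With cortical clusters Ctsh was at -0.51, Ctsz at -0.75, Ctsa at -0.13 and Ctsc at -0.054. Without cTEC replicate 1 Ctsh was at -0.63, Ctsz at -0.76 and Ctsa at -0.26, and without E13.5 TEC at 1.09, 0.67 and 0.43. Under stricter cluster removal Ctsh was at -0.10 and Ctsz at -0.030, and without cells with a myeloid UMI at -0.21 and -0.24. With all clusters kept Ctsz was at -0.047 and Lgmn at -0.015, with all deposited cells at -0.048 and -0.017, and Ctsz was at -0.028 without cells with a thymocyte UMI and -0.083 without cycling cells. The lineage test called 4980 genes, 2588 with DESeq2, 1142 under stricter cluster removal, 1877 without cells with a myeloid UMI, and 1316 to 2851 when 1 library and the data set term were left out. It called 6 of the 10 genes, 4 without the data set term alone, and 2 to 6 when 1 library and the term were left out, with 2 without mTEC replicate 2, where the lone mTEC library is assumed to vary like the cTEC libraries. No lineage estimate of the 10 genes changed sign under any of the 16 alternatives. In the cycling comparison Ctsc turned to -0.013 without NB cTEC (0.16 without mTEC replicate 1) and Lgmn to -0.066 with all deposited cells, and no gene passed under the other settings with 6 libraries, while with 1 library left out no gene could pass. The causes were not tested. The labels carry no replicate numbers, so no block by number was fitted, and data set, which holds 1 cTEC and 1 mTEC library each, was a term of the lineage fit. Shares of cells at 1000 UMIs or without thinning left the interval of the share at 2000 UMIs in 153 cases and stayed within it in 7. With all deposited cells 14 levels in CPM moved beyond counting error and 66 did not.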
